A study of Mus musculus with 32 samples.

Results

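Solute carriers are the membrane transporters that move sugars, amino acids, metals, vitamins, nucleotides and ions across the plasma membrane and the membranes of organelles. The genes described here are the solute carriers that were expressed in sorted neoplastic cells of mouse lung tumors. They were chosen by 2 criteria, a gene symbol of the solute carrier pattern (*Slc*, a family number, a letter and a member number, pseudogenes left out) and a mean of 10 TPM (RSEM's transcript abundance, scaled to gene length and library) or more over all 32 libraries. This gave 105 genes of 373 with such a symbol, among 53558 genes measured. The mean over all libraries chose the members, so their level is a description, and no test was made on it. The differences between groups were not used to choose them, but 21 of the 105 had a mean under 10 TPM in at least 1 group and passed through the others. The symbol pattern also took in 4 genes that are not carriers, the scaffold genes *Slc9a3r1* and *Slc9a3r2* and the neighbours or partners *Slc4a1ap* and *Slc7a6os*.

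Solute carriers are grouped into numbered families by sequence, and a family often shares a substrate. SLC2 proteins carry glucose and SLC16 proteins lactate and pyruvate. SLC39 and SLC30 proteins bring zinc and related metals into and out of the cytosol. SLC31 proteins carry copper, SLC23 proteins vitamin C, and SLC34 and SLC20 proteins phosphate. Most SLC25 proteins work in the inner mitochondrial membrane. In the lung, *Slc34a2* is the phosphate carrier of the alveolar type II cell, which makes and recycles surfactant. *Lkb1* (symbol *Stk11* in the files) encodes a kinase that activates AMPK and related kinases and is often lost in lung adenocarcinoma.

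All tumors were induced with lentiviral Cre and carried an activated oncogene allele, shared by all groups, and a tdTomato reporter. The *KT* group (4 libraries, with the Rosa26LSL-tdTomato reporter, 2 female and 2 male, untreated) kept wild-type *Lkb1*. Non-restored tumors (10 libraries, 7 female and 3 male) carried Lkb1XTR/XTR, an allele that Cre switches off and that FLPo recombinase can switch on again, with 6 libraries from vehicle treatment in the presence of FLPo-ERT2 and 4 from tamoxifen treatment in its absence. Restored tumors (7 libraries, all female) had Lkb1XTR/XTR and FLPo-ERT2 and received tamoxifen in doses of 4 mg over the 2 weeks before harvest. These 21 libraries came from tumors 24 to 27 weeks after induction. The same contrast was made in tumors that were also Trp53flox/flox and so *Trp53*-deficient, taken at 16 to 19 weeks, with 7 non-restored libraries (4 female and 3 male, 5 with vehicle and 2 with tamoxifen) that the titles assign to 4 animals, and 4 restored libraries (all female). All groups were sorted for tdTomato and against blood, endothelial and macrophage markers.

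*Stk11* ran from 16.0 to 29.5 TPM in *KT*, from 0 to 1.45 in non-restored, from 12.7 to 20.8 in restored, from 0 to 1.45 in *Trp53*-deficient non-restored and from 8.36 to 14.8 in *Trp53*-deficient restored libraries, as labelled. The libraries held 1302482 to 5943951 assigned counts. The summed level of 8 alveolar type II markers ran from 5742 to 129398 TPM, whereas 9 immune markers summed to between 8.81 and 93.9 TPM, 5 endothelial markers to between 0.4 and 54.3 TPM and 6 fibroblast markers to between 5.41 and 2041 TPM. Non-restored library 8 stood apart, with 5742 TPM of alveolar type II markers where the next lowest non-restored library had 35400. For some results, though not all that it bears on, the value without it is also given. For the *Trp53* wild-type XTR groups the study lists fewer mice than libraries. If that list covers these libraries, some mice gave several, and the labels do not say which. Libraries were tested as independent, so p-values measure the spread between libraries and not between mice. Sex and group were not balanced, since every restored library was female.

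Levels differed widely among the members. *Slc34a2* alone had a mean of 3002 TPM, which was 38.6% of the 7769 TPM of all 105 members and placed it at rank 32 among all genes. It was followed by the mitochondrial adenine nucleotide carrier *Slc25a5* (575 TPM), the mitochondrial phosphate carrier *Slc25a3* (316 TPM), the neutral amino acid carrier *Slc38a2* (288 TPM) and the sodium, potassium and chloride cotransporter *Slc12a2* (223 TPM). The peptide carrier *Slc15a2* (151 TPM), the chloride transporter *Slc26a9* (138 TPM), the adenine nucleotide carrier *Slc25a4* (121 TPM) and the choline-like transporter genes *Slc44a3* (118 TPM) and *Slc44a2* (91.6 TPM) completed the 10 highest. Most members were far lower, with a median of 23.7 TPM and 43 members under 20 TPM. Members were sorted by substrate from the family number, with exceptions for single genes, so a class name need not hold for each gene in it. By this sorting, 21 were mitochondrial carriers, 17 carried metals, 13 acid, base or salt and 13 nucleotide sugars. A further 11 carried amino acids, 2 glucose, 2 lactate, 2 phosphate and 1 vitamin C. Just inside the limit lay *Slc25a13* (11.2 TPM), *Slc10a6* (10.7 TPM) and *Slc12a7* (10.1 TPM), and just outside it *Slc7a5* (9.96 TPM), *Slc35a2* (9.93 TPM) and *Slc39a11* (9.92 TPM). The vitamin C carrier *Slc23a1*, with a mean of 3.48 TPM, was not a member.

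Restoration of *Lkb1* was first compared with no restoration in *Trp53* wild-type tumors. Of the 105 members, all tested, 4 passed an adjusted p of 0.05 (3.81%), against 1.87% of 12636 genes tested. Members were chosen by level and the genes tested were not, so the shares come from unlike sets. With at least 10 counts in every library, 4 members were called, against 2.54% of 7593 genes. The copper importer *Slc31a1* and the nucleotide sugar family member *Slc35a5* were higher after restoration (0.973% of all genes were), and the vitamin C carrier *Slc23a2* and the glycine carrier *Slc6a9* were lower (0.894% of all genes were). The count of 4 became 1 without restored library 1, 2, 6 or 7, 2 without non-restored 2, 3, 5 or 9 or restored 4, and 7 without non-restored 8, and offsets for effective length left 1 gene, *Slc31a1*. The median log2 fold change was -0.07 over the members and -0.01 over all genes tested. An unadjusted p under 0.05 was found for 28 members, and for 1824 of the 12026 genes that were also tested in *Trp53*-deficient tumors. In these bulk libraries, fewer cells with a transcript and less of it per cell cannot be told apart.

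*Slc31a1* (chromosome 4, 62360727-62391769, + strand, mm10) encodes CTR1, the high-affinity copper importer of the plasma membrane. Its level ran from 50.1 to 86.0 TPM in restored libraries (median 68.6) and from 22.8 to 49.1 TPM in non-restored libraries (median 40.5). The 7 restored libraries all lay above the 10 non-restored ones. The level was 1.85-fold higher after restoration (log2 fold change 0.88, SE 0.159, adjusted p = 0.00424, edgeR quasi-likelihood test). The difference was called in 31 of 32 alternative analyses, the exception being the contrast with the 4 tamoxifen-treated non-restored libraries alone (adjusted p = 0.116), and its log2 fold change ranged from 0.81 to 0.95 over the 32.

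The 4 *KT* libraries had 38.2, 75.4, 81.1 and 61.4 TPM of *Slc31a1*. Of these, 3 lay above every non-restored library and 1 lay within their range. Non-restored tumors had 1.82-fold less than *KT* (log2 fold change -0.87, SE 0.187, adjusted p = 0.00753). This contrast shares the non-restored libraries with the previous one, so the pair are not independent. *Slc31a2*, which encodes the related copper transporter CTR2 of internal membranes, lies 62315 bases before *Slc31a1* on chromosome 4 and on the same strand. It was at 37.4, 26.3, 30.4 and 46.8 TPM in the *KT* libraries, at 6.22 to 30.2 TPM in the non-restored (median 17.9) and at 11.5 to 36.1 TPM in the restored (median 23.2). All but 1 of the *KT* libraries lay above the non-restored range, and the restored range overlapped both groups. *Slc31a2* was 2.14-fold lower in non-restored tumors than in *KT* (log2 fold change -1.10, SE 0.295, adjusted p = 0.0291), whereas restored and non-restored did not pass the test (log2 fold change 0.39, SE 0.254, adjusted p = 0.499).

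**Figure D1:**
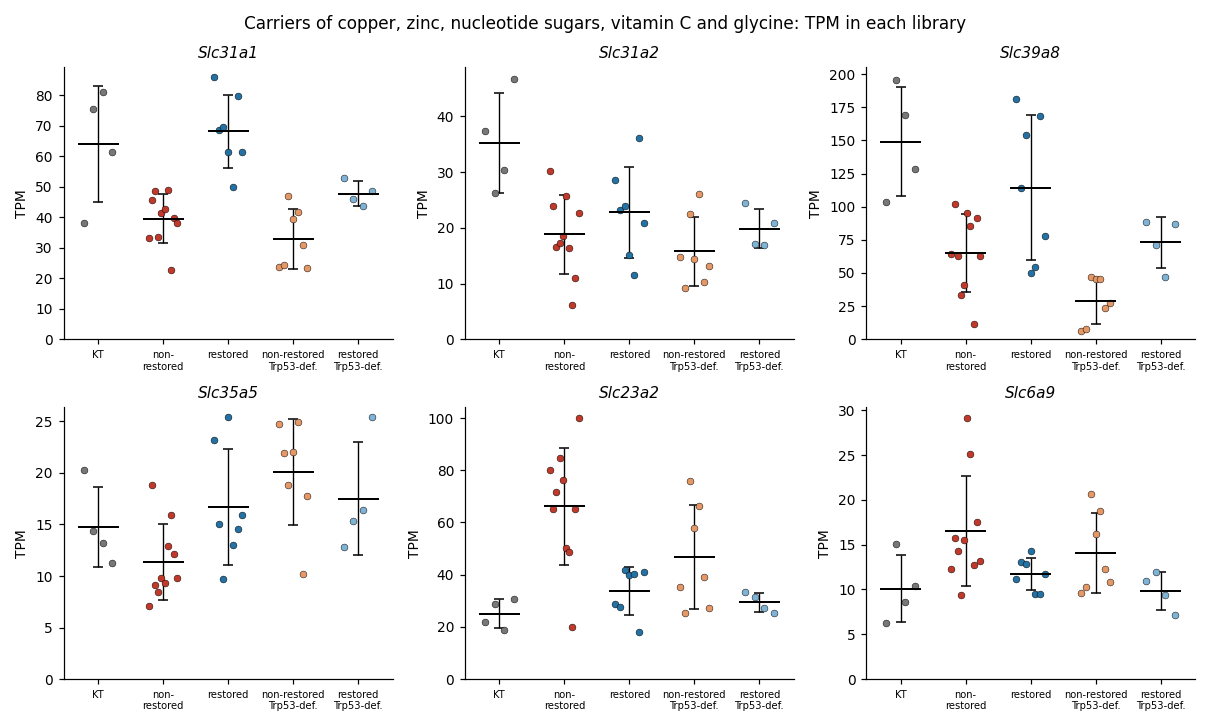
TPM in each library (points) of the copper carriers *Slc31a1* and *Slc31a2*, the zinc carrier *Slc39a8*, *Slc35a5*, the vitamin C carrier *Slc23a2* and the glycine carrier *Slc6a9*, by group, with the mean (line) and SD (bars). For *Slc31a1* the 7 restored libraries, at 50.1 TPM or more, lie above the 10 non-restored libraries, at 49.1 TPM or less.

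The sequences before the start sites of both copper carrier genes are shown because the genes are neighbours and were both lower in non-restored tumors than in *KT*. They are stretches without an annotated exon from within the 250 bases before the RefSeq start site (GRCm38.p6, + strand), at chr4:62360549-62360700 for *Slc31a1* and chr4:62286179-62286428 for *Slc31a2*. The *Slc31a2* stretch lies inside the gene as GENCODE spans it (62262562-62298411), before a start site within it.
Slc31a1: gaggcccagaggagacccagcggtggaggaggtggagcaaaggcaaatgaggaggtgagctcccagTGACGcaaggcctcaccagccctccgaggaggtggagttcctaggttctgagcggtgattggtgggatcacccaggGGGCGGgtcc
Slc31a2: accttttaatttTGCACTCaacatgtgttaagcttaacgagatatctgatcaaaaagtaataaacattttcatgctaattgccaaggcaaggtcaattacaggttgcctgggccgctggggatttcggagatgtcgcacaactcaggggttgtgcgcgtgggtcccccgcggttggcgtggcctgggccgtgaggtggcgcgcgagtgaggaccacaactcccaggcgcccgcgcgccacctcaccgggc
Capitals mark matches, on either strand, to the letters searched. These were the GC box GGGCGG, the core TGACG of the cyclic AMP response element, the E box CACGTG, the C/EBP motif TTGCNNAA and the metal response element core as TGCACNC or TGCGCNC. The *Slc31a1* stretch (152 bases) held TGACG and GGGCGG and the *Slc31a2* stretch (250 bases) held TGCACNC. These stretches of unequal length shared none of the motifs. Over the 250-base windows of all 32851 RefSeq start sites, 32.7% held GGGCGG, 17.8% TGACG, 6.02% CACGTG, 9.56% TTGCNNAA, 10.4% TGCACNC and 12.5% TGCGCNC. Over the 108 windows of the 85 members that matched the table the shares were 63.0%, 25%, 12%, 8.33%, 10.2% and 20.4% in the same order. The median GC content was 62.0% in the members' windows and 52.4% in all windows, and a part of GC content in these shares was not tested. A match is a description of the letters and not of a bound site.

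*Slc23a2* (chromosome 2, 132052496-132145108, - strand) encodes SVCT2, a sodium-dependent carrier of vitamin C. It ran from 19.9 to 100 TPM in non-restored libraries (median 68.4), from 18.02 to 41.6 TPM in restored libraries (median 39.7) and was at 21.97, 28.6, 19.0 and 30.7 TPM in *KT*. Non-restored library 8 was the one at 19.9 TPM, and the other 9 non-restored libraries, at 48.7 TPM or more, lay above every restored and *KT* library. The level was 1.66-fold lower after restoration (log2 fold change -0.73, SE 0.18, adjusted p = 0.0342) and 1.69-fold higher in non-restored tumors than in *KT* (log2 fold change 0.76, SE 0.223, adjusted p = 0.046). The first of these was called in 14 of 32 alternative analyses and the second in 12 of 32.

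The other vitamin C carrier, *Slc23a1* (SVCT1), moved in the opposite direction at a low level. It was at 14.8, 15.1, 9.97 and 10.2 TPM in *KT*, at 0.47 to 3.21 TPM in non-restored libraries (median 1.3) and at 3.13 to 6.02 TPM in restored libraries (median 3.60). Every *KT* library lay above every restored library, and the restored and non-restored ranges overlapped narrowly. It was 10.4-fold lower in non-restored tumors than in *KT* (log2 fold change -3.38, SE 0.354, adjusted p = 4.08e-06), 3.11-fold higher after restoration (log2 fold change 1.64, SE 0.321, adjusted p = 0.00827) and 3.35-fold lower in restored tumors than in *KT* (log2 fold change -1.74, SE 0.371, adjusted p = 0.0332). The counts behind it were small, 3 to 30 per non-restored library.

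*Slc6a9* (chromosome 4, 117834506-117875198, + strand) encodes GLYT1, a sodium- and chloride-dependent glycine carrier. It was at 9.42 to 29.2 TPM in non-restored libraries (median 14.9), at 9.48 to 14.3 TPM in restored libraries (median 11.7) and at 6.28, 15.1, 8.56 and 10.4 TPM in *KT*. The 3 groups overlapped. It was 1.55-fold lower in restored tumors (log2 fold change -0.63, SE 0.155, adjusted p = 0.0345), and 1.77-fold higher in non-restored tumors than in *KT* (log2 fold change 0.83, SE 0.198, adjusted p = 0.0147). The first was called in 14 of 32 alternatives, with an adjusted p up to 0.422, and the second in 27 of 32. Its exons overlap those of *B4galt2* and *Ccdc24* on the opposite strand and its estimated count was fractional in 30 of 32 libraries, so its share of reads is uncertain.

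*Slc35a5* (chromosome 16, 45139573-45158706, - strand) belongs to the SLC35 family of nucleotide sugar carriers of the Golgi and endoplasmic reticulum. It ran from 9.68 to 25.4 TPM in restored libraries (median 15.02), from 7.10 to 18.9 TPM in non-restored libraries (median 9.82) and was at 20.3, 14.4, 13.2 and 11.2 TPM in *KT*. The ranges overlapped. It was 1.48-fold higher after restoration (log2 fold change 0.57, SE 0.138, adjusted p = 0.0313) and 1.51-fold lower in non-restored tumors than in *KT* (log2 fold change -0.59, SE 0.166, adjusted p = 0.036). These calls held in 23 and 21 of 32 alternatives.

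The corresponding sequences before the start sites of *Slc35a5*, *Slc23a2* and *Slc6a9* are shown beside those of the copper carriers, since these genes completed the set that passed the test after restoration. They lie at chr16:45158707-45158784 (- strand), chr2:132145321-132145570 (- strand) and chr4:117855297-117855491 (+ strand, 1 of 3 RefSeq windows of *Slc6a9*). The *Slc6a9* stretch lies inside the gene as GENCODE spans it (117834506-117875198).
Slc35a5: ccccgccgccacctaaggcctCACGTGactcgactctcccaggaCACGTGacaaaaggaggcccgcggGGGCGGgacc
Slc23a2: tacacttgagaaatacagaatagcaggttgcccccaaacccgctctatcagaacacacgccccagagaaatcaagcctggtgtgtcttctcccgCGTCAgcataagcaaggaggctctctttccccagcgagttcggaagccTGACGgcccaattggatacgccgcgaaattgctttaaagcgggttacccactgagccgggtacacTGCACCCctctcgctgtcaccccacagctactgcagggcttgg
Slc6a9: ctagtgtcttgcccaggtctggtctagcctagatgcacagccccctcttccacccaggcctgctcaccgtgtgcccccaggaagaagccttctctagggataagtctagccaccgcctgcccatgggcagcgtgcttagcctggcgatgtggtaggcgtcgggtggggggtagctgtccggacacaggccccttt
The *Slc35a5* stretch held a pair of CACGTG matches and a GC box, the *Slc23a2* stretch TGACG on each strand and TGCACNC, and the *Slc6a9* stretch none of the letters searched.

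The glucose and lactate carriers did not pass the edgeR test after restoration. *Slc2a1* encodes GLUT1, the basal glucose carrier. It was at 14.4 to 39.3 TPM in restored libraries (median 19.0), at 22.2 to 134.7 TPM in non-restored libraries (median 31.6) and at 21.6, 19.0, 27.8 and 20.8 TPM in *KT*. The restored and non-restored ranges overlapped, and the highest non-restored values were those of libraries 8 (134.7 TPM) and 4 (103.1 TPM). Its log2 fold change was -1.05 (SE 0.382, adjusted p = 0.184) in restored against non-restored tumors, and the adjusted p stayed between 0.073 and 0.314 over 32 alternatives. *Slc50a1*, the other glucose carrier, had 0.13 on the log2 scale (adjusted p = 0.791).

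*Slc16a7* encodes MCT2, a high-affinity carrier of lactate and pyruvate. It was at 16.4, 35.2, 27.8 and 24.5 TPM in *KT*, at 1.71 to 19.6 TPM in non-restored libraries (median 8.91) and at 7.09 to 39.4 TPM in restored libraries (median 22.9). A single non-restored library reached the *KT* range. It was 4.19-fold lower in non-restored tumors than in *KT* (log2 fold change -2.07, SE 0.479, adjusted p = 0.0132). Restored against non-restored gave 1.27 on the log2 scale (SE 0.422, adjusted p = 0.14), while DESeq2 called it (1.29, adjusted p = 0.0445). *Slc16a1*, which encodes the more widely expressed MCT1, gave 0.51 (adjusted p = 0.178) in that contrast, 0.63 (adjusted p = 0.0396) in it without non-restored library 8, and -0.40 (adjusted p = 0.317) between non-restored tumors and *KT*.

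Between non-restored tumors and *KT*, 13 of the 105 members passed the test (12.4%), against 5.86% of all genes tested. Of these members 6 were higher (2.38% of all genes were) and 7 lower (3.48% of all genes were). The members' higher level again makes the sets unlike. With at least 10 counts in every library, 15 members were called, against 7.28% of 7593 genes. The count of 13 became 5 without *KT* 1, 3 or 4 and 19 without non-restored 8. In female libraries alone it was 1, *Slc31a1*. Of markers of other cells, 4 of 4 tested endothelial (median log2 fold change 1.87), 4 of 4 immune (0.90) and 5 of 6 fibroblast markers (1.51) were positive in this contrast and none was called by edgeR. After restoration the immune markers were again positive (4 of 4, median 0.92), and the endothelial (0 of 4 positive, median -0.83) and fibroblast markers (1 of 6 positive, median -0.28) mostly negative, also with no call. Their part in the carriers' differences was not tested. Besides the genes above, the higher ones were the amino acid carrier *Slc38a4*, the myo-inositol carrier *Slc5a3*, the mitochondrial adenine nucleotide carrier *Slc25a5* and the bicarbonate cotransporter *Slc4a4*. The lower ones included *Slc39a8* and *Slc1a1*, carriers of zinc and manganese and of glutamate. Of the 13, *Slc16a7*, *Slc38a4*, *Slc5a3* and *Slc6a9* had a mean under 10 TPM in at least 1 group, so the choice of members by an overall mean bears on their presence in this count.

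*Slc38a4* (SNAT4) showed the largest log2 fold change among the 13. Its levels were 9.20, 4.28, 4.65 and 4.87 TPM in *KT*, 3.57 to 58.9 TPM in non-restored libraries (median 41.8) and 5.06 to 25.01 TPM in restored libraries (median 11.4). Non-restored library 8 gave the 3.57 TPM, and the other 9 lay above all *KT* libraries. It was 5.92-fold higher in non-restored tumors than in *KT* (log2 fold change 2.56, SE 0.628, adjusted p = 0.0183). In restored against non-restored tumors the log2 fold change was -1.57 (SE 0.456, adjusted p = 0.0855), and it passed without library 8 (-1.71, adjusted p = 0.016), without restored library 3 (-1.89, adjusted p = 0.0479) and with DESeq2 (-1.57, adjusted p = 0.00848).

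*Slc5a3* imports myo-inositol, an osmolyte and lipid precursor. It was at 2.89, 4.56, 4.02 and 2.6 TPM in *KT*, at 9.62 to 23.6 TPM in non-restored libraries (median 13.1) and at 3.47 to 16.4 TPM in restored libraries (median 8.93). Every non-restored library exceeded every *KT* library. It was 3.98-fold higher in non-restored tumors than in *KT* (log2 fold change 1.99, SE 0.393, adjusted p = 0.00397) and was called in 31 of 32 alternatives. Its log2 fold change after restoration was -0.64 (SE 0.287, adjusted p = 0.291). Some of its exonic bases are shared with *Mrps6* on the same strand.

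*Slc25a5* was at 239, 519, 418 and 421 TPM in *KT* and at 486 to 809 TPM in non-restored libraries (median 711). The lowest non-restored library lay below the highest *KT* library. It was 1.56-fold higher in non-restored tumors (log2 fold change 0.64, SE 0.159, adjusted p = 0.0188), with fractional counts in 22 of 32 libraries. *Slc4a4* was at 26.4 to 42.2 TPM in *KT* and at 40.04 to 130.0 TPM in non-restored libraries (median 63.8) and was 1.92-fold higher (adjusted p = 0.0364). *Slc1a1* was 1.77-fold lower (adjusted p = 0.0349) in non-restored tumors than in *KT*. Exonic bases of *Slc1a1* are shared with a gene on the opposite strand.

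**Figure D2:**
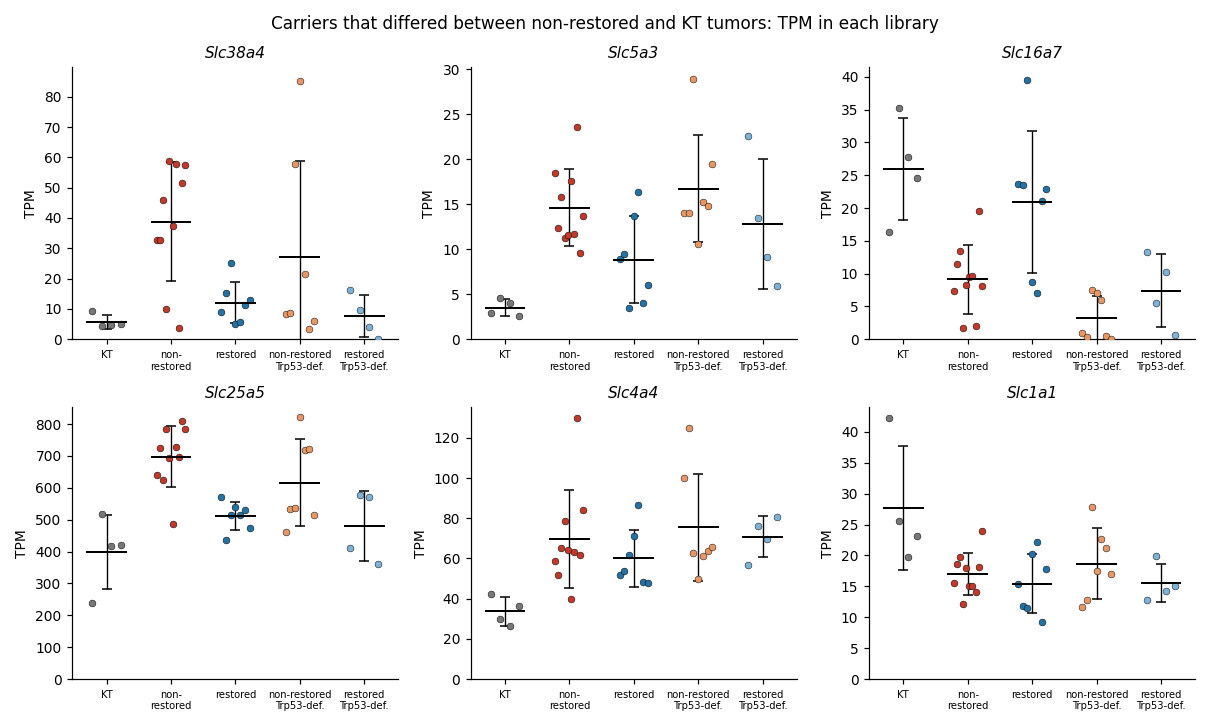
TPM in each library (points) of 6 carriers called in the contrast of non-restored tumors with *KT*, by group, with the mean (line) and SD (bars). The 10 non-restored libraries of *Slc5a3*, at 9.62 TPM or more, lie above the 4 *KT* libraries, at 4.56 TPM or less.

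Among the 17 metal carriers, *Slc39a8* (ZIP8, an importer of zinc and manganese) had the highest mean, 79.4 TPM. It was at 103.5, 195.5, 168.8 and 128.8 TPM in *KT*, at 11.6 to 101.7 TPM in non-restored libraries (median 63.6) and at 50.1 to 181.6 TPM in restored libraries (median 113.9). Every *KT* library lay above every non-restored library, whereas the restored range overlapped both. It was 2.59-fold lower in non-restored tumors than in *KT* (log2 fold change -1.38, SE 0.405, adjusted p = 0.0489), a call that held in 11 of 32 alternatives. After restoration its log2 fold change was 0.94 (SE 0.352, adjusted p = 0.195).

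Apart from *Slc31a1*, the metal carriers did not pass the edgeR test after restoration. The intestinal-type zinc importer *Slc39a4* was at -0.59 on the log2 scale (SE 0.168, adjusted p = 0.073), and it was called by DESeq2 (-0.59, adjusted p = 0.0273) and by edgeR without restored library 5 (-0.74, adjusted p = 0.0181). The zinc carriers *Slc39a1*, *Slc30a9*, *Slc39a10*, *Slc30a5* and *Slc30a4* lay between -0.48 and 0.02 on the same scale. Over the 17 metal carriers 10 had a positive and 7 a negative log2 fold change, with a median of 0.02. Against *KT*, 3 of the 17 were lower in non-restored tumors (*Slc31a1*, *Slc31a2* and *Slc39a8*) and none was higher (edgeR). Of all genes tested, 3.48% were lower and 2.38% higher in that contrast. The summed level of the 17 was 588 ± 27.6 TPM (SD, n = 4) in *KT*, 523 ± 31.8 TPM (SD, n = 10) in non-restored and 557 ± 54.2 TPM (SD, n = 7) in restored libraries.

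The 11 amino acid carriers gave 1 lower gene (*Slc6a9*) after restoration (0.894% of all genes were lower), with 3 positive and 8 negative log2 fold changes and a median of -0.24. The highest of them, *Slc38a2*, gave -0.03 (adjusted p = 0.95), and *Slc3a2*, the heavy chain of several amino acid exchangers, gave -0.27 (SE 0.107, adjusted p = 0.23). The cationic amino acid carrier *Slc7a1* gave -0.75 (SE 0.289, adjusted p = 0.203), and the glutamine carrier *Slc1a5* gave 0.37 (adjusted p = 0.281). The carriers *Slc6a14* and *Slc6a6* gave -0.30 and 0.01. Against *KT*, 2 of the 11 were higher in non-restored tumors (2.38% of all genes were) and 1 was lower (3.48% of all genes were).

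The phosphate carrier *Slc34a2* was at 1992, 3621, 3126 and 3092 TPM in *KT*, at 404 to 5262 TPM in non-restored libraries (median 3464) and at 2430 to 5814 TPM in restored libraries (median 4181). Non-restored library 8 was the lowest by far, and the other 9 ran from 2476 TPM upward, and overlapped the restored range. The summed alveolar type II markers ran from 51889 to 99891 TPM in *KT*, from 5742 to 97982 TPM in non-restored and from 54823 to 129398 TPM in restored libraries, and their part in the differences of alveolar carriers was not tested. The log2 fold change was 0.41 (SE 0.303, adjusted p = 0.564) after restoration and -0.01 (SE 0.366, adjusted p = 0.991) between non-restored tumors and *KT*. The other phosphate carrier, *Slc20a1*, gave -0.23 (adjusted p = 0.787) and 0.61 (adjusted p = 0.392).

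**Figure D3:**
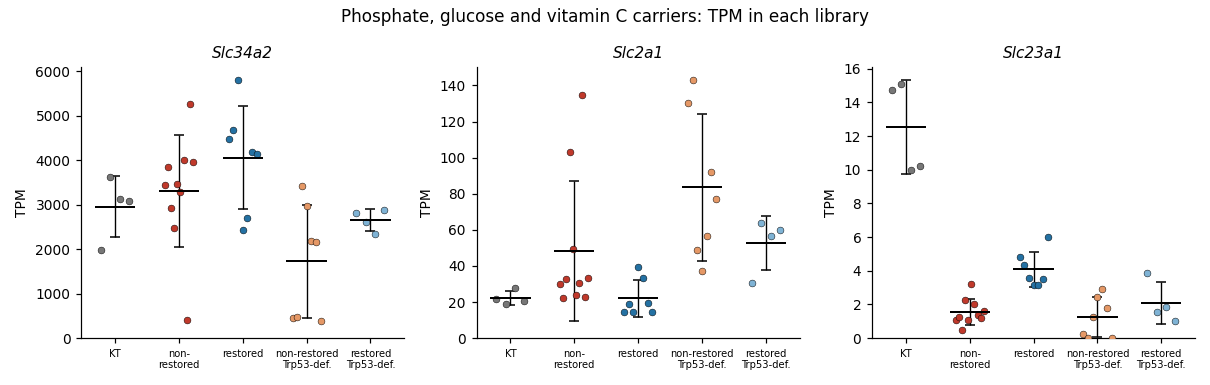
TPM in each library (points) of the phosphate carrier *Slc34a2*, the glucose carrier *Slc2a1* and the vitamin C carrier *Slc23a1*, by group, with the mean (line) and SD (bars). One non-restored library lies below the other 9 for *Slc34a2*, at 404 TPM. For *Slc2a1*, 2 non-restored libraries lie highest among the *Trp53* wild-type ones, at 103.1 and 134.7 TPM, and *Trp53*-deficient non-restored libraries reach 143.3 TPM. For *Slc23a1* the 4 *KT* libraries, at 9.97 TPM or more, lie above all others.

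Among the remaining groups, the 21 mitochondrial carriers gave no call after restoration (edgeR), with 8 positive and 13 negative log2 fold changes and a median of -0.10. Against *KT* they gave 1 higher gene, *Slc25a5* (2.38% of all genes were higher). Of the 13 members classed by family as nucleotide sugar carriers, 10 had a negative log2 fold change after restoration. The 1 that passed the test, *Slc35a5*, was positive. As the plot by substrate shows, every class of more than 3 genes held both positive and negative values after restoration.

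**Figure D4:**
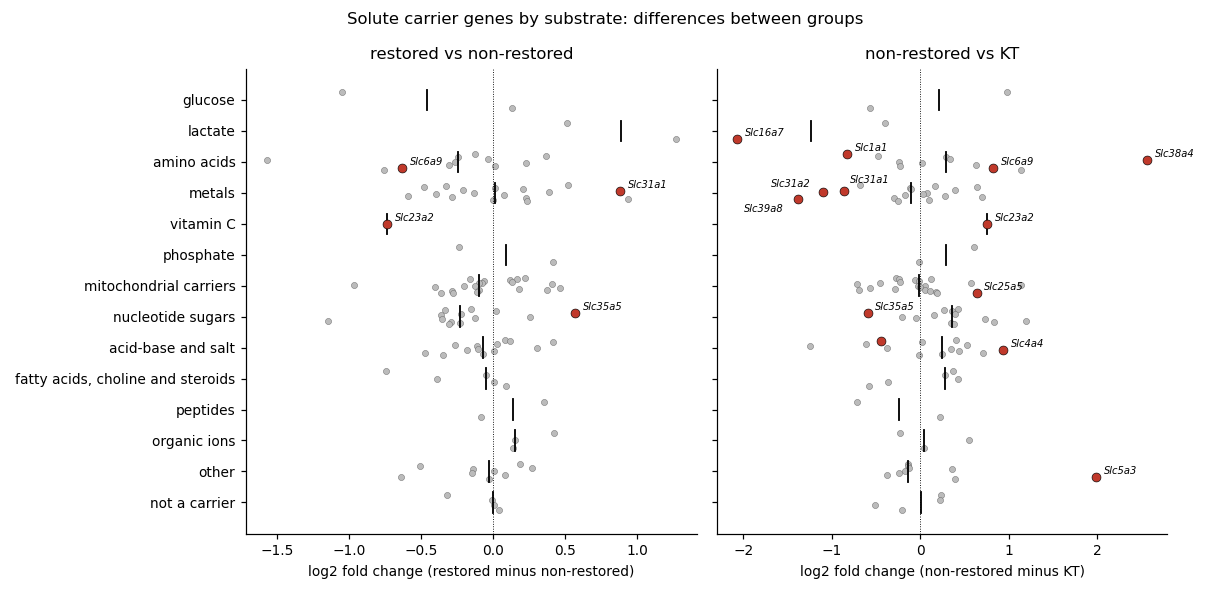
Log2 fold changes of the 105 members (points) by substrate class, for restored minus non-restored (left) and non-restored minus *KT* (right) tumors, with class medians (lines). Red points passed an adjusted p of 0.05 (the genes described in the text are named), 4 on the left and 13 on the right, and both panels share the non-restored libraries.

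Restored tumors were also set against *KT*. None of the 105 members passed the edgeR test, against 0.459% of all genes tested (0.127% higher and 0.332% lower). An unadjusted p under 0.05 was found for 11 members, and the share of all genes under that limit was not counted. DESeq2 called 2 members (*Slc1a1* and *Slc5a3*), against 1.33% of all genes tested. Their edgeR values were -0.95 on the log2 scale (SE 0.244, adjusted p = 0.0877) for *Slc1a1* and 1.36 (SE 0.396, adjusted p = 0.165) for *Slc5a3*. For *Slc31a1*, *Slc23a2* and *Slc35a5*, which were among the genes called after restoration, the log2 fold changes were 0.02, 0.02 and -0.02. Other classes spread further. The 11 amino acid carriers, with *Slc6a9* and *Slc38a4* among them, ran from -0.95 to 0.99, and the 2 lactate carriers were at -0.80 and 0.11.

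The restoration contrast in *Trp53*-deficient tumors rests on libraries that the wild-type contrast did not use. With 4 animals against 4 libraries, edgeR called none of the 105 members and 0% of 12516 genes. DESeq2 called 1 member (*Slc39a8*) and 0.184% of those genes. An unadjusted p under 0.05 was found for 10 members. With the direction of the wild-type contrast as well, it was found for 10 members and for 627 of the 12026 genes tested in both. *Stk11* itself, at 5.15 on the log2 scale, had an adjusted p of 0.0587 in the *Trp53*-deficient contrast. Of the 28 members with an unadjusted p under 0.05 in *Trp53* wild-type tumors, 24 had the same direction in *Trp53*-deficient tumors (85.7%), and 9 of these had an unadjusted p under 0.05 there too. Over all genes with an unadjusted p under 0.05 in wild-type tumors the share with the same direction was 83.3% of 1824, so in direction the members lay close to the background. Of those 1824 genes, 291 had the same direction and an unadjusted p under 0.05 in *Trp53*-deficient tumors, beside the 9 of 28 members. Across the 105 members, which are not independent replicates, Pearson's r between both sets of log2 fold changes was 0.726 and Spearman's rho 0.558. Across the 12026 genes tested in both they were 0.489 and 0.429. The members were chosen by level and those genes were not. A part of level in the higher correlation was not tested.

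The 9 genes, named here after their values were seen, were the metal carriers *Slc31a1*, *Slc39a8* and *Slc39a4*, the vitamin C carrier *Slc23a2*, the amino acid carriers *Slc6a9*, *Slc7a1* and *Slc3a2*, the mitochondrial ATP and phosphate carrier *Slc25a24* and the nucleotide sugar carrier *Slc35d1*. *Slc31a1* was at 53.03, 45.9, 43.6 and 48.6 TPM in the restored *Trp53*-deficient libraries and at 23.4 to 47 TPM in the 7 non-restored ones (median 30.8). The groups overlapped in a single non-restored library. The log2 fold change was 0.63 (SE 0.157, unadjusted p = 0.00257, adjusted p = 0.804, edgeR).

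*Slc39a8* was at 88.2, 70.8, 46.7 and 86.8 TPM in the restored *Trp53*-deficient libraries and at 5.97 to 46.8 TPM in the non-restored ones (median 27.2). All but 1 restored library lay above every non-restored library. The log2 fold change was 1.36 (SE 0.28, unadjusted p = 0.000725, adjusted p = 0.804, edgeR). The values for the others in the wild-type and *Trp53*-deficient contrasts were -0.73 and -0.58 for *Slc23a2*, -0.59 and -0.59 for *Slc39a4*, -0.63 and -0.50 for *Slc6a9*, -0.75 and -0.66 for *Slc7a1*, -0.96 and -0.72 for *Slc25a24*, -1.14 and -0.90 for *Slc35d1* and -0.27 and -0.46 for *Slc3a2*, all as log2 fold changes.

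*Slc35a5* did not share this pattern, at -0.11 on the log2 scale (SE 0.244, adjusted p = 0.938) in *Trp53*-deficient tumors. The difference of its effect between backgrounds did not pass the test either (interaction -0.72, SE 0.265, unadjusted p = 0.0119, adjusted p = 1.00). Over all members the interaction gave no call by edgeR (0% of 13706 genes), and DESeq2 called none. An unadjusted p under 0.05 was found for 3 members, and the share of all genes under that limit was not counted.

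**Figure D5:**
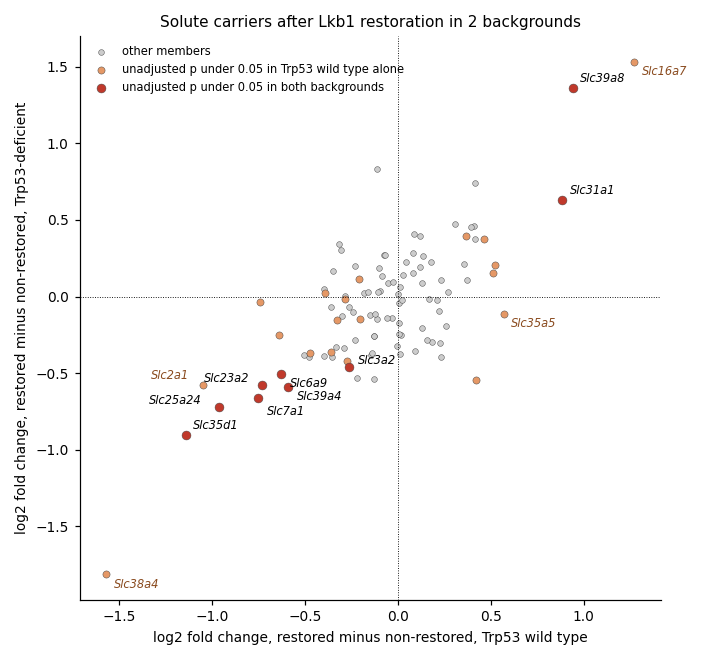
Log2 fold change after *Lkb1* restoration of each of the 105 members (points) in *Trp53* wild-type tumors (horizontal) and *Trp53*-deficient tumors (vertical), which share no library. Orange points had an unadjusted p under 0.05 in the wild type alone, and the 9 members under 0.05 in both (red, named) have the same sign on both axes.

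*Trp53* loss was compared within non-restored and within restored tumors. The *Trp53*-deficient tumors were taken at 16 to 19 weeks and the wild-type ones at 24 to 27 weeks, so *Trp53* status and time cannot be told apart. *Slc9a3r1*, a scaffold gene that is not a carrier, was the 1 member called in non-restored tumors (log2 fold change 0.76, SE 0.17, adjusted p = 0.0373), against 0.584% of all genes (0.365% higher and 0.219% lower). Within restored tumors edgeR called none, against 0.372% of all genes (0.182% higher and 0.19% lower). DESeq2 called 3 (*Slc20a1*, *Slc25a30* and *Slc26a4*), against 1.58% of all genes. An unadjusted p under 0.05 was found for 18 members, and the share of all genes under that limit was not counted.

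The count in non-restored tumors shifted most with non-restored library 8. The call of *Slc9a3r1* held without that library, and it held in 17 of 30 alternatives. Without non-restored library 8, 33 members passed the test (21 higher and 12 lower with *Trp53* loss), against 10.8% of 13429 genes. Its level of *Trp53*, 26.9 TPM, was that of a *Trp53* wild-type tumor, but its *Slc34a2* (404 TPM) and *Slc2a1* (134.7 TPM) lay among those of the *Trp53*-deficient non-restored libraries, which ran from 386 to 3417 TPM and from 37.0 to 143.3 TPM. Those higher without it were led by *Slc7a1* (log2 fold change 1.16, SE 0.177, adjusted p = 0.000572, against 0.83 and 0.16 with it) and also held *Slc2a1* (1.17, SE 0.339, adjusted p = 0.0326, against 0.82 and 0.302 with it). The lower ones held *Slc34a2* (-1.10, SE 0.322, adjusted p = 0.0328) and *Slc39a8* (-1.24, SE 0.377, adjusted p = 0.0388). The count was 0 without non-restored 1, 3, 6, 7, 9 or 10, restored 1 or *Trp53*-deficient animal 1 or 4, 2 without restored 5 or animal 2, and 5 without non-restored 4. Without non-restored 2, restored 3 or animal 3 the 1 member called was *Slc35a5*. Within restored tumors 1 member was called without non-restored 4, restored 4 or restored 5, and 3 without non-restored 8.

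The levels of *Slc34a2* and *Slc2a1* also varied within 1 animal. *Trp53*-deficient animal 1 gave 3 non-restored libraries, with 458, 481 and 3417 TPM of *Slc34a2* and with 130.4, 143.3 and 49.0 TPM of *Slc2a1*. The pair of libraries low in *Slc34a2* were those high in *Slc2a1*.

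Genes that act with these carriers were read from 4 lists. Of 17 glycolysis and lactate genes, 2 were lower after restoration (0.894% of all genes were) and none was higher, with a list median of -0.50 against -0.01 for all genes. The lower ones were the glycolytic enzymes *Eno1* (log2 fold change -1.33, SE 0.234, adjusted p = 0.00364, edgeR) and *Aldoa* (-0.86, SE 0.203, adjusted p = 0.0264, edgeR). In non-restored tumors against *KT*, 4 of the 17 were higher (2.38% of all genes were) and 3 were lower (3.48% of all genes were). Named after their values were seen, the higher ones were *Pfkp*, *Eno1*, *Aldoa* and *Ldha*, by log2 fold changes of 1.83, 1.37, 0.90 and 0.67. The lower ones were *Ldhb*, *Pfkfb3* and *Txnip*, at -1.70, -1.70 and -0.88.

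None of the 12 tested genes of metal handling passed the edgeR test after restoration (median 0.15). Against *KT*, the metallothionein gene *Mt2* was higher in non-restored tumors (log2 fold change 1.45, SE 0.377, adjusted p = 0.0264), and the heme oxygenase gene *Hmox1* (-1.04, SE 0.215, adjusted p = 0.00527) and the ferritin heavy chain gene *Fth1* (-0.73, SE 0.184, adjusted p = 0.0195) were lower. Among 12 tested genes of amino acid response, none passed after restoration (median -0.13) and *Gclc*, an enzyme of glutathione synthesis, was higher in non-restored tumors (1.38, SE 0.402, adjusted p = 0.0454). The 6 tested partners of phosphate and vitamin C carriers gave no call in either contrast.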

How the data were processed

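RNA from sorted neoplastic cells was sequenced after ribosomal RNA depletion. Per the labels, the authors aligned reads to mm10 with STAR 2.6.1d, estimated expected counts and TPM per gene with RSEM 1.2.30 and tested with DESeq2 1.26.0. Deposited expected counts (1302482 to 5943951 per library) were rounded and tested with edgeR 4.0.16 (TMM, filterByExpr, robust quasi-likelihood F-test, Benjamini-Hochberg over all genes, R 4.3.3). DESeq2 1.42.0 was an alternative. Deposited TPM values chose the members and give levels. *KT*, non-restored and restored libraries shared 1 fit (21 libraries). *Trp53*-deficient groups were fitted alone (8 units) and, for *Trp53* contrasts, with the wild-type restored and non-restored groups (25 units). Libraries of 1 *Trp53*-deficient animal were summed. On simulated counts, 76% of 2-fold and 100% of 4-fold changes were recovered in restored against non-restored (12380 genes), 36% and 96% in the *Trp53*-deficient contrast (12177 genes), and 15% and 87% for the interaction (13404 genes). The changes were set in 200 genes, all well expressed, and the libraries were drawn as independent. These shares therefore do not hold for low genes or for several libraries of 1 mouse.

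Named genes were 4 markers (*Slc23a1*, *Slc39a8*, *Slc2a1*, *Slc34a2*), the 10 highest members, members called (at most 10 per direction), up to 8 members of each of 6 substrate classes, 3 genes on each side of the limit and list genes called after restoration. The members and lists were chosen with earlier results of these data known. Promoter sequences are RefSeq's (GRCm38.p6), and exons and gene positions are from GENCODE M21. Alternatives were another tool, normalization, filter, length offsets, sex, treatment arm, replicate block, TPM limit and leaving out each library. The authors' deposited tables of their own comparisons (log2 fold changes and p-values) were not used. A called gene and an allele shared by all groups are not reported here.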

Additional observations from a re-analysis of the deposited data

Results flagged for a closer look

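For 17 named genes, the highest or lowest library of each group was set against the others by its gap divided by the group's range. Of 85 groups of values 2 were flagged, where chance alone gives about 1 in 20, so the yield was not above that of chance. *KT* library 1 had 9.20 TPM of *Slc38a4*, where the other 3 *KT* libraries had 4.87 TPM or less. Non-restored library 8 had 130.0 TPM of *Slc4a4*, where the other 9 had 84.1 TPM or less.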

How the results depend on the processing

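Choosing by the mean of the 5 group means gave 107 members and by the median over libraries 101, against 105. After restoration, the count of 4 became 7 with DESeq2, 2 without a filter on low counts, 1 with length offsets, 2 with sex as a covariate, 2 in female libraries alone, 0 with the tamoxifen arm alone and 2 with a limit of 20 TPM, and it ranged from 1 to 7 when single libraries were left out. Against *KT*, the count of 13 became 8 with length offsets, 1 in female libraries alone, 8 with only the 2 groups compared, 3 with the tamoxifen arm alone and 7 with a limit of 20 TPM, with a range of 5 to 19. Restored against *KT* gave 2 with DESeq2 and 1 with a limit of 5 TPM, and 0 without any single library. The *Trp53*-deficient contrast gave 1 with DESeq2 and 0 to 0 when units were left out. *Trp53* loss in non-restored tumors gave 4 with DESeq2, 0 without a filter, 3 with at least 10 counts in every library and 0 with a limit of 20 TPM, and 0 to 33 when libraries were left out. In restored tumors it gave 3 with DESeq2, 1 with at least 10 counts in every library, and 0 to 3 when libraries were left out. The shares of all genes called by DESeq2 were 3.7% after restoration, 1.33% for restored against *KT* and 0.184% in the *Trp53*-deficient contrast. For *Trp53* loss they were 3.01% in non-restored and 1.58% in restored tumors.

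With the replicate number as a block, the counts were 5 after restoration (4 without it), 12 against *KT* (13 without it) and 2 for restored against *KT* (0 without it). Of 15 same-numbered pairs, 6 had a correlation of deviations over 0.1 (-0.05 to 0.50), the highest between non-restored 4 and restored 4. Pairs with different numbers were not compared, so whether the numbers pair the samples cannot be told from these values. *Slc34a2* in non-restored tumors against *KT* (log2 fold change -0.01) turned positive without a filter (0.0095), with length offsets (0.0211), with the replicate block (0.0152), with the tamoxifen arm alone (0.0423) and without *KT* 2 (0.1103), *KT* 3 (0.0184), non-restored 4 (0.0319) or non-restored 8 (0.1183), with -0.1515 to 0.1183 over single libraries left out. The cause of these shifts was not tested. Depth was lowest in *KT* (1302482 to 2649449 counts), which limits calls of low genes there.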

Other observations

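Solute carrier genes below 10 TPM also passed the test, and these were named after their values were seen. Of 102 such genes tested, 5 were called after restoration (1.87% of all 12636 genes were), *Slc23a1* as above, *Slc40a1*, *Slc16a12* and *Slc4a5* higher and *Slc12a4* lower. *Slc40a1* encodes ferroportin, the iron exporter. It was at 36.7, 3.21, 36.9 and 21.1 TPM in *KT*, at 0 to 2.19 TPM in non-restored libraries (median 0.91) and at 1.06 to 12.9 TPM in restored libraries (median 2.89). Every *KT* library lay above every non-restored library, and restored and non-restored libraries overlapped. It was 25.99-fold lower in non-restored tumors than in *KT* (log2 fold change -4.70, SE 0.616, adjusted p = 9.01e-05) and 4.72-fold higher after restoration (log2 fold change 2.24, SE 0.57, adjusted p = 0.0451), on 0 to 22 counts per non-restored library.

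The bicarbonate carrier *Slc4a5* was at 5.48 to 13.1 TPM in *KT*, at 1.14 to 4.91 TPM in non-restored libraries (median 3.03) and at 2.93 to 11.1 TPM in restored libraries (median 8.93). It was 2.71-fold higher after restoration (log2 fold change 1.44, SE 0.315, adjusted p = 0.0173). *Slc16a12*, a creatine carrier, was 3.54-fold higher (log2 fold change 1.82, SE 0.397, adjusted p = 0.0166). The potassium and chloride carrier *Slc12a4* was at 6.86 to 12.8 TPM in non-restored and 4.82 to 7.48 TPM in restored libraries and was 1.46-fold lower after restoration (log2 fold change -0.54, SE 0.117, adjusted p = 0.0152).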
